A study of Arabidopsis thaliana with 21 samples.

Results

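The genes described here are the 34 nuclear genes for subunits of photosystem I (12 genes), photosystem II (13 genes) and the electron carriers, FNR and ATP synthase (9 genes), chosen by the subunit they encode with the light-harvesting antenna genes left out, of 24100 loci listed in the files. All 34 were listed and all 34 were tested. Transcripts of whole Arabidopsis thaliana seedlings were sequenced 14 days after germination on sucrose-free MS medium at 22 °C with 16 h of light, in 7 groups of 3 biological replicates. The groups were asil1-1 and asil2-1 single mutants and the asil1-1 asil2-1 double mutant, all labelled Columbia-0; the asil2-2 single mutant, labelled Landsberg erecta; the asil1-1 asil2-2 double mutant, labelled with both ecotypes; and the wild types Ler (Landsberg erecta) and Col-0 (Columbia-0). ASIL1 and ASIL2 encode trihelix transcription factors. In asil1-1 asil2-2 the mutations and the mixed ecotype cannot be told apart, so this line was set against both wild types.

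In the thylakoid membrane, photosystem II oxidises water and passes electrons through the cytochrome b6f complex to plastocyanin. Photosystem I then passes them to ferredoxin, from which FNR (ferredoxin-NADP+ oxidoreductase) makes NADPH, while the proton gradient drives the ATP synthase. The chloroplast genome encodes the reaction centre cores, and the nucleus encodes the proteins listed here, which are imported into the chloroplast. These transcripts are among the most abundant in green tissue and are regulated by light and sugar.

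The libraries held between 6522764 and 28794135 counts. ASIL1 averaged 4.83 ± 0.314 CPM (counts scaled by library size; mean ± SD, n = 3) in asil1-1, 8.01 ± 0.639 CPM in asil1-1 asil2-1 and 5.66 ± 1.13 CPM in asil1-1 asil2-2, against 33.0 ± 3.32 CPM in Ler and 33.6 ± 1.25 CPM in Col-0. ASIL2 did not fall in the libraries labelled asil2-1, at 435 ± 54.5 CPM in asil2-1 and 168 ± 32.5 CPM in asil1-1 asil2-1, against 38.1 ± 8.97 CPM in Col-0; whether these counts come from a functional transcript was not tested, and asil2-1 stands below for the libraries labelled so. In the libraries labelled asil2-2 it was at 24.4 ± 6.45 CPM in asil2-2 and 75.9 ± 15.5 CPM in asil1-1 asil2-2, against 31.6 ± 4.15 CPM in Ler. The ecotype labels were checked with 64 genes that differed by at least 4 (log2) between the wild types, on an index of 0 for the Col-0 level and 1 for the Ler level. The median index was -0.01 for asil1-1, 0.00 for asil2-1 and for asil1-1 asil2-1, 0.99 for asil2-2 and 0.13 for asil1-1 asil2-2. Over the whole transcriptome, short transcripts were lower relative to long ones in every library of every other group than in any Col-0 library. The members are short, so this trend is given beside the results below. Of 18 root marker genes, 17 were listed and 13 tested, and their summed level was 82.3 to 92.4 CPM for asil1-1, 93.6 to 107 CPM for asil2-1, 94.4 to 128 CPM for asil1-1 asil2-1, 98.7 to 111 CPM in asil2-2, 114 to 120 CPM in asil1-1 asil2-2, 103 to 127 CPM in Ler and 90.7 to 163 CPM in Col-0. The markers PLT2, PLT1, WOX5, RHD6, RSL4, EXPA7 and EXPA18 were each at 0 in at least 1 library. In whole seedlings, fewer green cells and less RNA per green cell cannot be told apart.

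The 34 genes together took 4.61% to 5.58% of all counts for asil1-1, 2.92% to 3.69% for asil2-1, 3.32% to 3.58% for asil1-1 asil2-1, 4.0% to 4.83% in asil2-2, 3.25% to 4.30% in asil1-1 asil2-2, 4.59% to 5.10% in Ler and 5.74% to 6.45% in Col-0. Every library of the other 6 groups lay below every Col-0 library. The asil2-1 and asil1-1 asil2-1 libraries lay below all asil1-1 libraries, and the asil1-1 asil2-2 libraries lay below all Ler libraries, while asil2-2 overlapped Ler.

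**Figure D1:**
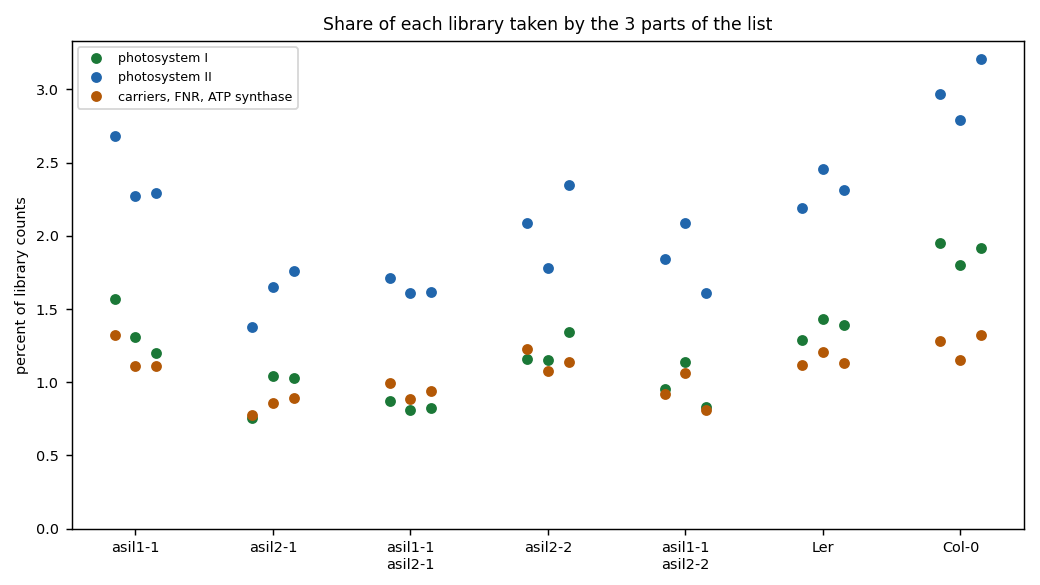
Percent of each library's counts (y axis) taken by the genes of photosystem I, of photosystem II and of the electron carriers, FNR and ATP synthase in the 7 groups (x axis), with 1 point per library and colour. The photosystem I share was 0.753% to 1.04% in asil2-1 and 1.80% to 1.95% in Col-0, a wider gap than for the carriers, FNR and ATP synthase, at 0.778% to 0.892% in asil2-1 and 1.15% to 1.32% in Col-0.

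The comparison of asil2-1 with Col-0 asked how the photosynthetic transcripts stand in the line labelled with the first asil2 allele. In asil2-1, 31 of the 34 genes fell at an adjusted p under 0.05, against 19.3% of all 19589 genes tested that were lower. The count was 18 with a correction for exonic length (each library's trend on length removed) and the root marker score together, against 7.04% of all genes, and 18 with the length correction when replicate 3 alone stood for Col-0, against 3.78% of all genes. None was higher by edgeR, against 21.9% of all genes, and the count at an unadjusted p under 0.05 and the count by DESeq2 were also 0. Among the root markers, 6 were lower and 1 was higher. The median log2 fold change of the 34 genes was -0.82, and 0.02 over all genes. All 12 photosystem I genes fell, with a median of -1.12, and all 13 photosystem II genes fell, with a median of -0.74. Of the other 9 genes, 6 fell, with a median of -0.40, and the 3 that did not pass were both FNR genes and ATPC1.

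In photosystem I, both genes of subunit H changed most. PSAH1 (AT3G16140) and PSAH2 (AT1G52230) encode the subunit H that docks light-harvesting complex II in state transitions. PSAH1 had 151, 180 and 209 CPM in asil2-1, against 702, 642 and 795 CPM in Col-0 (log2 fold change -1.99 ± 0.19 SE, 3.96-fold lower, adjusted p = 3.27e-07). PSAH2 had 184, 269 and 266 CPM in asil2-1, against 922, 855 and 973 CPM in Col-0 (log2 fold change -1.93 ± 0.17, adjusted p = 6.69e-08). In both genes every asil2-1 library lay far below every Col-0 library. All asil2-1 libraries lay below all Col-0 libraries in 31 of the 34 genes, against 23.3% of all genes tested. Annotated exons of a neighbouring locus overlap both genes, with 49.7% of the 36-base stretches of PSAH1 and 20.8% of those of PSAH2 also found in the neighbour's transcript, so some of their counts are uncertain. PSAE2 (AT2G20260), 1 of a pair of genes for the subunit E near the ferredoxin site, had 141, 177 and 179 CPM in asil2-1, against 588, 507 and 656 CPM in Col-0 (log2 fold change -1.82 ± 0.16, adjusted p = 4.97e-08). PSAG, a subunit that contacts the antenna, averaged 782 ± 163 CPM in asil2-1 and 2260 ± 288 CPM in Col-0 (2.89-fold lower, adjusted p = 3.27e-07). The other 8 photosystem I genes (PSAD1, PSAD2, PSAE1, PSAF, PSAK, PSAL, PSAN and PSAO) fell by less, with log2 fold changes between -1.19 in PSAO and -0.69 in PSAD2.

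In photosystem II, PSBR (AT1G79040), a small subunit needed for stable binding of the oxygen-evolving protein PsbP, changed most. It had 1840, 2030 and 2430 CPM in asil2-1, against 6580, 6660 and 9530 CPM in Col-0 (log2 fold change -1.85 ± 0.20, 3.61-fold lower, adjusted p = 8.56e-07). PSBTN (AT3G21055), which encodes a small nuclear-encoded PsbT protein, had 315, 334 and 435 CPM in asil2-1, against 1030, 970 and 1220 CPM in Col-0 (log2 fold change -1.57 ± 0.17, adjusted p = 8.95e-07). PSBY (AT1G67740), a small membrane subunit, had 543, 669 and 732 CPM in asil2-1, against 1440, 1310 and 1590 CPM in Col-0 (log2 fold change -1.16 ± 0.12, adjusted p = 3.04e-07). The groups did not overlap in any of these 3 genes, as in 23.3% of all genes in this direction. The membrane subunit PSBX and the manganese-stabilising PSBO2 fell by 1.18 and 1.02 on the log2 scale. The remaining 8 genes, among them PSBO1 and PSBP1 of the oxygen-evolving complex and PSBS of non-photochemical quenching, had log2 fold changes between -0.81 in PSBQ2 and -0.34 in PSB27, an assembly protein. Per kilobase of the counted transcript model, PSBR had the highest level of the 34 genes in Col-0, at 9680 CPM per kb, and PSB28, another assembly protein, the lowest, at 155 CPM per kb.

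Among the carriers, PETE2 (AT1G20340), the more abundant plastocyanin gene, showed the largest change of the 34 genes. It had 726, 809 and 908 CPM in asil2-1, against 3430, 3070 and 3850 CPM in Col-0 (log2 fold change -2.08 ± 0.16, 4.24-fold lower, adjusted p = 7.06e-09). Its paralogue PETE1 (AT1G76100) had 118, 139 and 144 CPM in asil2-1, against 247, 233 and 291 CPM in Col-0 (log2 fold change -0.94 ± 0.16, adjusted p = 1.06e-04). FD2 (AT1G60950), the main leaf ferredoxin, had 1140, 1440 and 1630 CPM in asil2-1, against 2400, 2100 and 2910 CPM in Col-0 (log2 fold change -0.82 ± 0.18, adjusted p = 0.00147). The libraries of the 2 groups were separate in all 3 genes, as in 23.3% of all genes in this direction. PETC, the Rieske protein of cytochrome b6f, and the ATP synthase subunit genes ATPD and ATPG fell by 0.40, 0.47 and 0.37 on the log2 scale.

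Both FNR genes and the ATP synthase gamma subunit gene did not follow. FNR1 (AT5G66190) had 880, 878 and 959 CPM in asil2-1, against 1070, 875 and 1090 CPM in Col-0 (log2 fold change -0.16 ± 0.10, adjusted p = 0.220). Of the 36-base stretches of FNR1, 10.6% are also found in an overlapping neighbour, so some of its counts are uncertain. FNR2 (AT1G20020) had 932, 1080 and 1010 CPM in asil2-1, against 1010, 802 and 1020 CPM in Col-0 (log2 fold change 0.09 ± 0.14, adjusted p = 0.615). ATPC1 (AT4G04640) had 1650, 1590 and 1690 CPM in asil2-1, against 1510, 1310 and 1690 CPM in Col-0 (log2 fold change 0.12 ± 0.10, adjusted p = 0.336). In these 3 genes the groups overlapped.

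**Figure D2:**
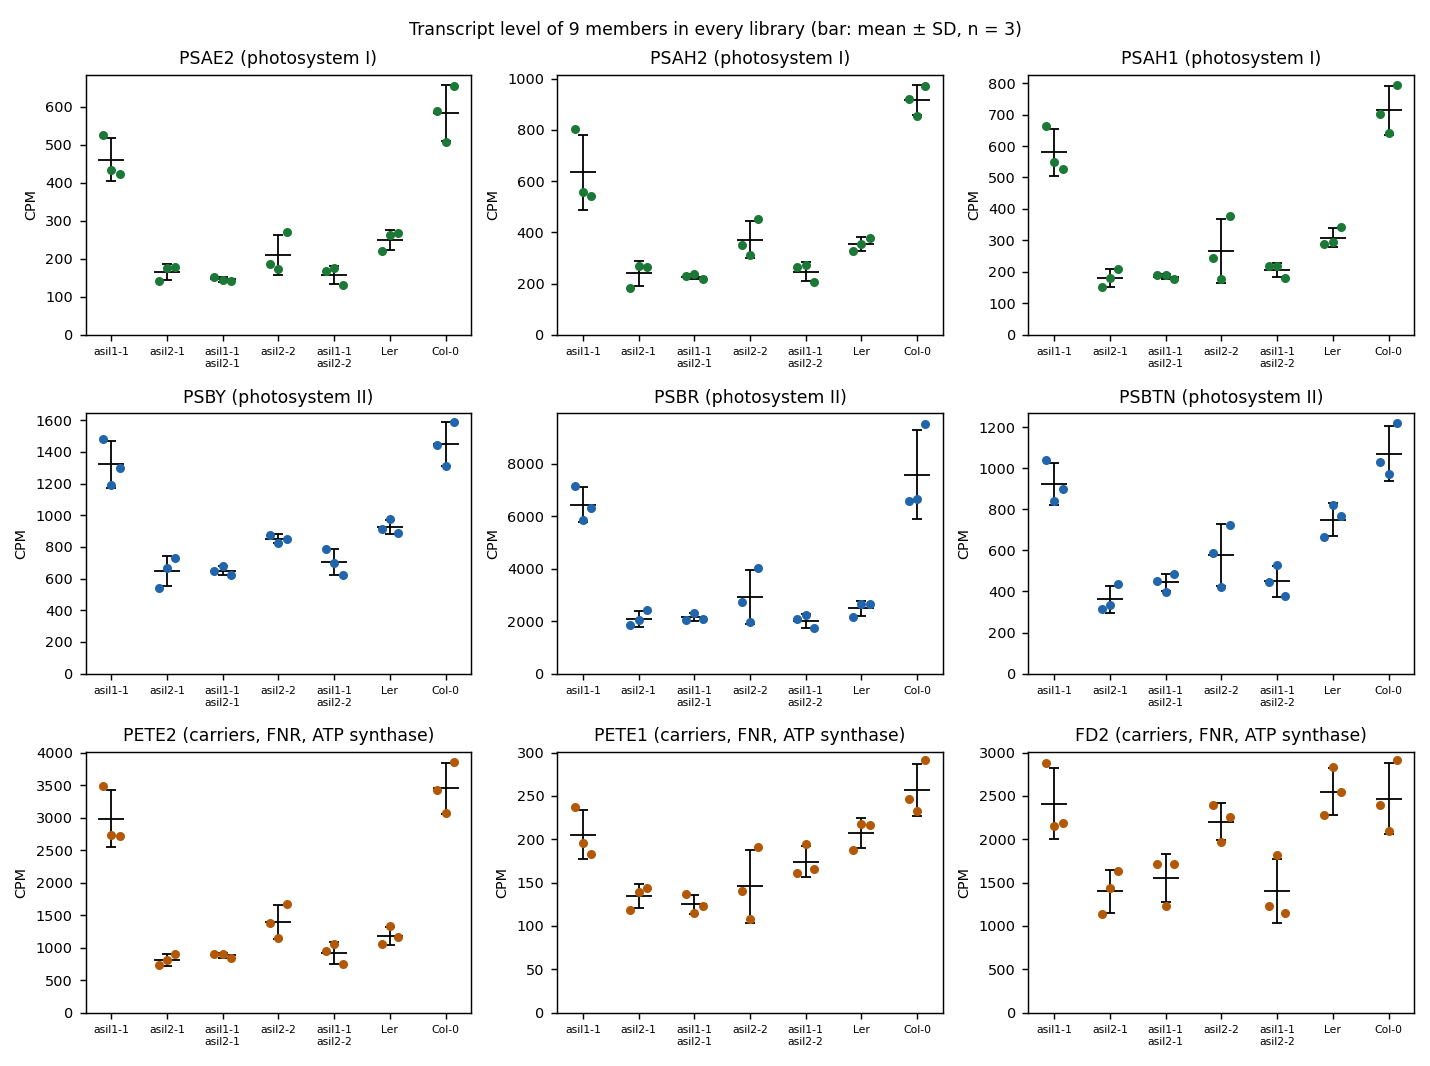
CPM (y axis, from 0) of 9 genes in every library of the 7 groups (x axis), with a point per library and the mean ± SD (n = 3) in black. These are the 3 genes with the smallest p in asil2-1 against Col-0 in each of photosystem I, photosystem II and the rest; in PSAE2, PSAH1, PSAH2, PSBR and PETE2 only asil1-1 comes near Col-0, and Ler lies with the other mutants.

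The upstream sequences of PSAH1 and PSBR, which changed strongly, and of FNR2, which was not called in asil2-1, are shown for comparison. They are the 250 bases before the annotated start of the counted model in TAIR10.1, and none of the 3 holds an annotated exon of another locus. PSAH1 lies on the minus strand at chr3:5469595-5469844, PSBR on the plus strand at chr1:29735702-29735951 and FNR2 on the plus strand at chr1:6942375-6942624. Capitals mark GGTTAA and GTGATT, 2 GT elements of the kind that trihelix factors bind, or their reverse complement; CACGTG (the G-box) and GATAAG (the I-box) were searched too and have no match in these windows.
PSAH1: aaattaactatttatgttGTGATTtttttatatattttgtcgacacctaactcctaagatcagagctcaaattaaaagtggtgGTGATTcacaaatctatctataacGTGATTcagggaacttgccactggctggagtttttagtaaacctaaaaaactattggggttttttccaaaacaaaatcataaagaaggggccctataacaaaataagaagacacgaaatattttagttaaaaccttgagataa
PSBR: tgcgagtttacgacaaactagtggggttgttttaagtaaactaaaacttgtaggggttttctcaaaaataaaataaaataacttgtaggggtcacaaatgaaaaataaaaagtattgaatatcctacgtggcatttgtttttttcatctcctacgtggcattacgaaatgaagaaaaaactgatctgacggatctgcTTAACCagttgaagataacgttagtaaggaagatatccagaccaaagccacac
FNR2: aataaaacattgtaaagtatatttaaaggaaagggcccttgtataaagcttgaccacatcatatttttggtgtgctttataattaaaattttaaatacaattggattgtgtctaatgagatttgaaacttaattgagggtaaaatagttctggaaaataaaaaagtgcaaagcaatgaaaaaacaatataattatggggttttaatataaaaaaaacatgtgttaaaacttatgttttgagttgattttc
PSAH1 holds GTGATT 3 times and PSBR holds GGTTAA once on the minus strand, and FNR2 holds neither. These windows are examples, and the list does not divide so simply. Of the other genes that changed most in asil2-1, PSAE2, PSBTN and PETE2 hold 1 of the elements, while PSAH2 (-1.93) and PSAG (-1.53) hold neither. PETC (-0.40) and ATPG (-0.37), which changed little, hold 1, while FNR1 and ATPC1, not called, hold neither. Any link of the elements with the fold changes was not tested. Over the window that reaches 50 bases past the start, on both strands, GTGATT was found in 23.5% of the 34 genes and 18.5% of all 23837 promoters, and GGTTAA in 23.5% of the 34 genes and 16.9% of all promoters. The light-response motifs were more frequent in the list. The G-box was in 38.2% of the 34 genes and 8.33% of all promoters, and the I-box in 55.9% of the 34 genes and 14.9% of all promoters. Within the list, the G-box stood in 61.5% of the photosystem II genes, 33.3% of the photosystem I genes and 11.1% of the rest. The I-box stood in 75% of the photosystem I genes, 30.8% of the photosystem II genes and 66.7% of the rest. These shares are over the same window, and some of the matches reach past the start. In the 250 upstream bases alone, fewer photosystem II genes hold the G-box. There the I-box is less frequent in photosystem I than in the rest. Matches of different motifs were counted separately even where they overlapped, and a match describes the letters, not a binding site.

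In asil1-1 asil2-1, the question was whether the double mutant differs from Col-0 and from each single mutant. Against Col-0, 27 of the 34 genes fell, against 18.8% of all genes that were lower, with a median log2 fold change of -1.02. None was higher by edgeR, against 20.5% of all genes, or by DESeq2, and 1 was higher at an unadjusted p under 0.05. Of the root markers, 7 were lower and 1 was higher. All 12 photosystem I genes fell (median -1.18), as did 10 of 13 photosystem II genes (median -0.76) and 5 of 9 of the rest (median -0.27). PETE2 had 900, 900 and 840 CPM in asil1-1 asil2-1, against 3430, 3070 and 3850 CPM in Col-0 (log2 fold change -1.97 ± 0.16, adjusted p = 1.58e-08). PSAH2 averaged 227 ± 9.64 CPM in asil1-1 asil2-1 and 917 ± 59.4 CPM in Col-0 (4.03-fold lower, adjusted p = 4.51e-08), and PSBR averaged 2150 ± 144 CPM in asil1-1 asil2-1 and 7590 ± 1680 CPM in Col-0 (3.53-fold lower, adjusted p = 1.32e-06).

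Against asil1-1, 22 of the 34 genes were lower in asil1-1 asil2-1, against 9.43% of all genes, with a median log2 fold change of -0.63. None was higher by edgeR, against 6.21% of all genes, at an unadjusted p under 0.05 or by DESeq2. By role, 11 photosystem I genes, 7 photosystem II genes and 4 of the rest were lower. PETE2 had 900, 900 and 840 CPM in asil1-1 asil2-1, against 3490, 2730 and 2720 CPM in asil1-1 (log2 fold change -1.76 ± 0.15, adjusted p = 2.69e-07). PSAE2 had 153, 144 and 142 CPM in asil1-1 asil2-1, against 526, 434 and 424 CPM in asil1-1 (log2 fold change -1.66 ± 0.16, adjusted p = 4.22e-07). The libraries of the double mutant lay below those of asil1-1 in both genes, as in 17.9% of all genes.

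Against asil2-1, the double mutant was close. Only PSB28 was called, higher, against 3.17% of all genes that were higher, with 131, 133 and 132 CPM in asil1-1 asil2-1, against 94.4, 83.9 and 105 CPM in asil2-1 (log2 fold change 0.48 ± 0.14, adjusted p = 0.0427). This call was lost when any 1 of the 6 libraries was left out. None of the 34 was lower by edgeR, against 3.04% of all genes, or by DESeq2, and 4 were at an unadjusted p under 0.05; 3 of the 34 were lower when asil2-1 replicate 1 was left out. The median log2 fold change was 0.04. It was -0.18 in photosystem I, with 10 of 12 genes below 0, and 0.10 in photosystem II, with 4 of 13 below 0. In the rest it was 0.12, with 1 of 9 below 0. In a test of non-additivity, the double mutant minus the sum of both single effects, PSBS alone passed by edgeR, at 0.54 ± 0.15 (adjusted p = 0.0452), against 2.22% of all genes that were positive and 2.33% that were negative. PSBS had 1160, 1040 and 983 CPM in asil1-1 asil2-1, 1390, 1100 and 1160 CPM in asil1-1, 744, 859 and 918 CPM in asil2-1 and 1440, 1310 and 1450 CPM in Col-0. It was lowest in asil2-1. The PSBS call was lost in 8 of 12 cases of leaving out 1 library, which were asil1-1 asil2-1 replicates 1 and 3, asil1-1 replicates 2 and 3, asil2-1 replicates 1 and 2 and Col-0 replicates 1 and 2.

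In asil1-1, changes were small. Against Col-0, 6 of the 34 genes were lower, against 8.35% of all genes, with a median log2 fold change of -0.24. By role, the median was -0.41 in photosystem I, -0.23 in photosystem II and 0.03 in the rest. At an unadjusted p under 0.05, 13 of the 34 genes were lower, as were 2916 of all 19589 genes. Of these 13, 11 were of photosystem I and 2 of photosystem II. None was higher by edgeR, against 8.91% of all genes, at an unadjusted p under 0.05 or by DESeq2. The 6 were PSAD2, PSAE1, PSAH2, PSAL and PSAO of photosystem I and PSBQ2 of photosystem II, and none of the 9 other genes was called. PSAD2 had 801, 606 and 571 CPM in asil1-1, against 1100, 924 and 1050 CPM in Col-0 (log2 fold change -0.64 ± 0.15, adjusted p = 0.00644). PSBQ2 had 1260, 1040 and 912 CPM in asil1-1, against 1680, 1490 and 1690 CPM in Col-0 (log2 fold change -0.60 ± 0.14, adjusted p = 0.00548). The groups did not overlap in either gene, as in 15.4% of all genes in this direction. PETE2 had a log2 fold change of -0.21 ± 0.15 (adjusted p = 0.352) and PSBR of -0.24 ± 0.19 (adjusted p = 0.429). The count of 6 depended on single libraries. It was 11 without asil1-1 replicate 1, 3 without asil1-1 replicate 2, 2 without asil1-1 replicate 3, 3 without Col-0 replicate 1, 3 without Col-0 replicate 3, and 0 when replicate 3 alone stood for Col-0. The root markers moved with this comparison, 8 lower and 1 higher, with a root score (their mean centred log2 level) of -1.11 to -0.31 in asil1-1 and 0.29 to 1.70 in Col-0, and the count was 0 with the root score in the fit; their part in the result was not tested further.

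The second asil2 allele gave another picture. In asil2-2 against Ler, only PSAD2 was lower, against 3.57% of all genes, and none was higher by edgeR, against 2.39% of all genes, at an unadjusted p under 0.05 or by DESeq2. PSAD2 had 599, 620 and 800 CPM in asil2-2, against 886, 982 and 1020 CPM in Ler (log2 fold change -0.52 ± 0.15, adjusted p = 0.0423). The median log2 fold change of the 34 genes was -0.21, and 11 were lower at an unadjusted p under 0.05, as were 2269 of all 19589 genes. By role, the median was -0.25 in photosystem I, -0.26 in photosystem II and -0.08 in the rest. Of the 7 genes that changed most in asil2-1, PSBTN was at -0.38 here (adjusted p = 0.197), PSAE2 at -0.26, PSAH1 at -0.22, PSAG at -0.05 and PSAH2 at 0.07, and none of them was called. PETE2 had 1380, 1150 and 1670 CPM in asil2-2, against 1050, 1330 and 1160 CPM in Ler (log2 fold change 0.25 ± 0.15, adjusted p = 0.357). Its groups overlapped. PSBR had 2740, 1980 and 4010 CPM in asil2-2, against 2160, 2660 and 2640 CPM in Ler (log2 fold change 0.23 ± 0.19, adjusted p = 0.549), with the highest and the lowest values of the 6 libraries both in asil2-2. Replicate 3 was the highest asil2-2 library in PSAD2, PETE2 and PSBR. Without it 6 genes were lower, and the PSAD2 call was lost without asil2-2 replicate 1 or 2 or without Ler replicate 2 or 3.

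The asil2-2 and asil2-1 effects, each against its own wild type, differed in 17 of the 34 genes, all with the higher value for asil2-2, against 10.6% of all genes in that direction and 12.1% in the other. For PETE2 the difference was 2.33 ± 0.22 (adjusted p = 1.50e-07), for PSBR 2.08 ± 0.28 (adjusted p = 1.91e-05) and for PSAH2 2.00 ± 0.23 (adjusted p = 3.20e-06). It joins the 2 alleles with their ecotypes, so allele and ecotype cannot be told apart.

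In asil1-1 asil2-2, the list was lower than in Ler almost throughout. Against Ler, 28 of the 34 genes fell, against 13.5% of all genes that were lower, all 34 had a log2 fold change below 0, and the median was -0.52. None was higher by edgeR, against 14.8% of all genes, at an unadjusted p under 0.05 or by DESeq2. All 12 photosystem I genes fell (median -0.60), as did 10 of 13 photosystem II genes (median -0.52) and 6 of 9 of the rest (median -0.36). The count was 18 without asil1-1 asil2-2 replicate 3. The order of the genes differed from that in asil2-1. PSAF, which docks plastocyanin on photosystem I, changed most, with a mean of 1250 ± 219 CPM in asil1-1 asil2-2 and 2720 ± 100 CPM in Ler (log2 fold change -1.12 ± 0.14, adjusted p = 3.51e-06). FD2 had 1230, 1820 and 1150 CPM in asil1-1 asil2-2, against 2280, 2830 and 2540 CPM in Ler (log2 fold change -0.86 ± 0.18, adjusted p = 0.00119). FNR2 had 993, 1070 and 775 CPM in asil1-1 asil2-2, against 1450, 1450 and 1450 CPM in Ler (log2 fold change -0.62 ± 0.14, adjusted p = 0.00162). FNR1 fell by 0.33 on the log2 scale (adjusted p = 0.0172). The libraries did not overlap in these 4 genes, as in 20.6% of all genes in this direction. PETE2 (-0.36 ± 0.15, adjusted p = 0.0784) and PSBR (-0.30 ± 0.19, adjusted p = 0.266) were not called.

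Against Col-0, 27 of the 34 genes were lower in asil1-1 asil2-2, against 15.5% of all genes, with a median of -0.82 and no gene higher by edgeR, against 16.7% of all genes, at an unadjusted p under 0.05 or by DESeq2. Here PETE2 and PSBR had the lowest values, with log2 fold changes of -1.91 ± 0.16 (adjusted p = 9.16e-09) and -1.91 ± 0.20 (adjusted p = 5.13e-07), while FNR1 and FNR2 were at 0.00 ± 0.10 and 0.00 ± 0.14. The ecotype check showed a mosaic in asil1-1 asil2-2. The median index was 0.01 over 18 genes of chromosome 1, which holds PSAG, PSAH2, PSBR and PETE2, 0.97 over 7 genes of chromosome 2, which holds PSAE2, 0.13 over 11 genes of chromosome 3, which holds PSAH1, 0.57 over 12 genes of chromosome 4 and 0.16 over 16 genes of chromosome 5. The part of ecotype in these results was not tested.

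The wild types themselves differed. In Ler, 14 of the 34 genes were lower than in Col-0, against 18.3% of all genes, and 4 were higher, against 17.9% of all genes. The lower genes were 8 of 12 in photosystem I (median -0.49), 5 of 13 in photosystem II (median -0.20) and 1 of 9 in the rest (median 0.04). Of the higher genes, 1 was of photosystem II and 3 of the rest. Short genes as a whole were also lower in Ler. At a coding length of 300 to 450 nt, 8 of 11 members were lower, against 41.6% of all genes. At over 450 to 700 nt, 5 of 15 members were lower, against 27.8% of all genes. From over 700 nt to the longest member, 1 of 8 was lower, against 17.5% of all genes. Above 450 nt the members were thus near the share of all genes of their length. No test was made within these classes. The genes that were low in asil2-1 led the list in Ler as well. PSBR had 2160, 2660 and 2640 CPM in Ler, against 6580, 6660 and 9530 CPM in Col-0 (log2 fold change -1.61 ± 0.20, 3.05-fold lower, adjusted p = 2.82e-06). PETE2 had 1050, 1330 and 1160 CPM in Ler, against 3430, 3070 and 3850 CPM in Col-0 (log2 fold change -1.55 ± 0.15, 2.93-fold lower, adjusted p = 8.89e-08). PSAH2, PSAE2, PSAH1 and PSAG followed, with log2 fold changes of -1.37, -1.22, -1.20 and -0.94. All Ler libraries lay below all Col-0 libraries in these 6 genes, as in 21.8% of all genes.

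The 4 genes higher in Ler were PSBQ1, FNR1, FNR2 and ATPC1. As a count, 4 of 34 is below the 17.9% of all genes that were higher, so the 4 are given as single genes. FNR2 had 1450, 1450 and 1450 CPM in Ler, against 1010, 802 and 1020 CPM in Col-0 (log2 fold change 0.62 ± 0.14, adjusted p = 0.00123). PSBQ1, which encodes an oxygen-evolving complex protein, had 1960, 2170 and 2080 CPM in Ler, against 1590, 1290 and 1690 CPM in Col-0 (log2 fold change 0.45 ± 0.13, adjusted p = 0.00887). ATPC1 had 1960, 1890 and 1930 CPM in Ler, against 1510, 1310 and 1690 CPM in Col-0 (log2 fold change 0.35 ± 0.10, adjusted p = 0.00880). FNR1 had 1250, 1290 and 1270 CPM in Ler, against 1070, 875 and 1090 CPM in Col-0 (log2 fold change 0.33 ± 0.10, adjusted p = 0.0139). The groups were separate in all 4, as they were in this direction in 23.5% of all genes. After correction for coding length the split was 9 lower and 9 higher, and the shares of all genes in that fit are not given here. The 4 higher calls were not kept when replicate 3 alone stood for Col-0. Without Col-0 replicate 2, 1 gene was higher. The comparisons with Col-0 share its 3 libraries, so the like order of genes in both double mutants, asil2-1 and Ler is not independent. The comparison of asil1-1 asil2-1 with asil1-1 uses no Col-0 library, and there the same 6 genes had log2 fold changes between -1.76 in PETE2 and -1.30 in PSAG.

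**Figure D3:**
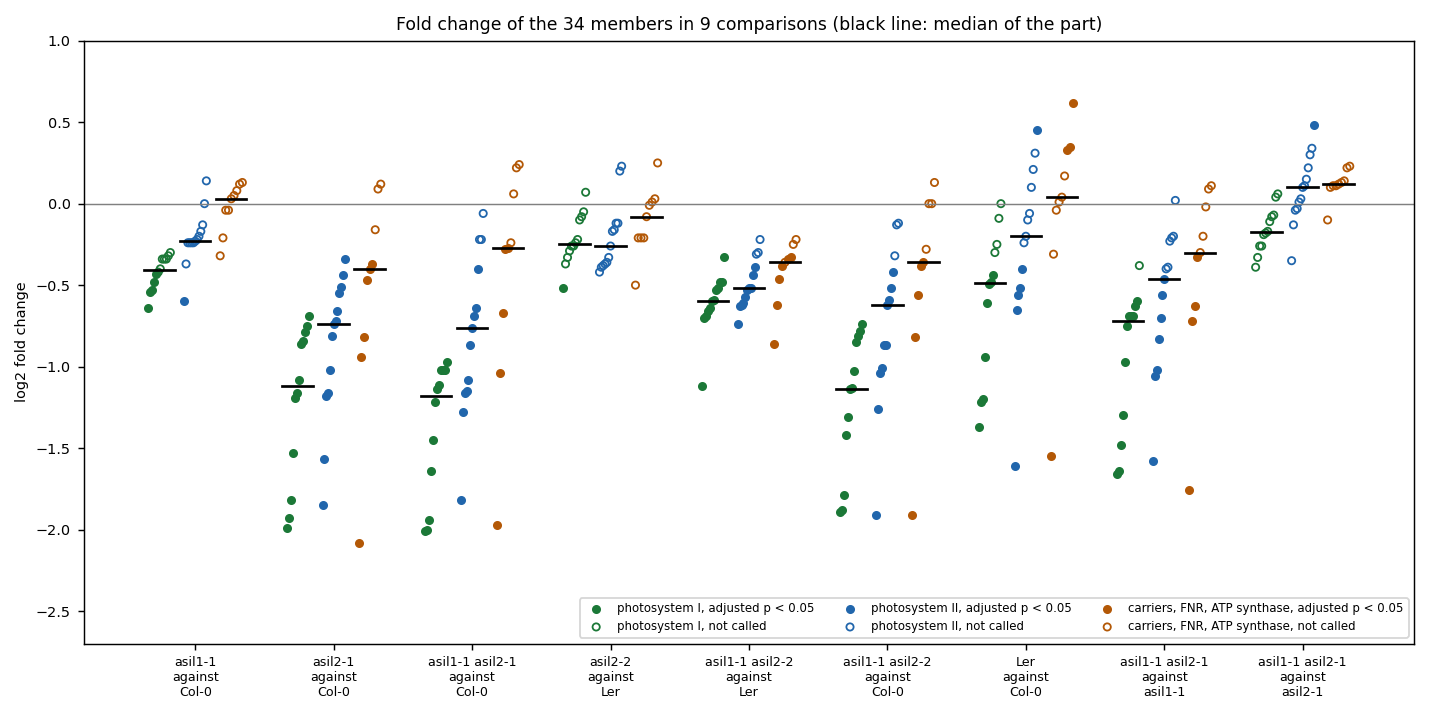
Log2 fold change (y axis) of each of the 34 genes in 9 comparisons (x axis), by colour for photosystem I, photosystem II and the rest, with filled points for an adjusted p under 0.05 and a black line at the median. The photosystem I median lies below the photosystem II median in 8 of the 9 comparisons shown, and 7 genes, between -2.08 and -1.53, stand below the others in asil2-1 against Col-0.

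The 3 divisions stood at different levels relative to Col-0. The mean log2 level of the 12 photosystem I genes minus that of the 13 photosystem II genes, relative to Col-0, was -0.32 to -0.16 for asil1-1, -0.47 to -0.22 for asil2-1, -0.61 to -0.57 for asil1-1 asil2-1, -0.47 to -0.33 in asil2-2, -0.51 to -0.45 in asil1-1 asil2-2, -0.41 to -0.31 in Ler and -0.05 to 0.03 in Col-0. Every library outside Col-0 lay below every Col-0 library on this difference. The asil1-1 asil2-1 libraries lay lowest, and asil1-1 did not overlap asil1-1 asil2-1. No test was made on this score over genes chosen together. Photosystem I genes are also the shorter ones, with a median coding length of 460.5 nt, against 597 nt in photosystem II and 690 nt in the rest. With the trend on coding length removed, the median log2 fold change in asil2-1 against Col-0 was -0.60 in photosystem I and -0.59 in photosystem II, so the gap between the photosystems was not seen there, while the rest was at -0.16. In asil1-1 asil2-1 against Col-0 the corrected medians were -0.91 in photosystem I, -0.63 in photosystem II and -0.05 in the rest, and in asil1-1 asil2-2 against Ler they were -0.54, -0.47 and -0.30.

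Some pairs of genes for the same subunit changed unequally and others together. The ratio of counts of PSAH1 to PSAH2 averaged 0.758 in asil2-1 and 0.776 in Col-0, and FNR1 and FNR2 differed in call in 0 of 9 comparisons. No 36-base stretch was shared between 2 copies of a pair, although the handling of reads that map to several places is not stated in the labels or files. The ratio of counts of PSAE1 to PSAE2 within a library was 5.01, 4.98 and 5.23 in asil2-1, against 3.18, 3.28 and 3.20 in Col-0. It was 2.83, 2.93 and 2.66 in asil1-1 and 5.37, 5.32 and 5.29 in Ler. Col-0 and asil1-1 thus stood apart from the other 5 groups, whose 15 libraries lay between 4.82 and 6.22. The ratio of PETE2 to PETE1 showed the same split, between 4.46 and 10.7 in the other 5 groups, where asil2-2 was highest at 8.75 to 10.7, against 14.0 to 14.9 in asil1-1 and 13.2 to 13.9 in Col-0.

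The pairs PSAD, PSBO and PSBQ differed in call between their copies in at least 2 of 9 comparisons. PSAD1, a ferredoxin-docking subunit gene, had 1100, 1180 and 1200 CPM in Ler, against 1700, 1480 and 1660 CPM in Col-0 (log2 fold change -0.48 ± 0.11, adjusted p = 0.00238). Its copy PSAD2 had 886, 982 and 1020 CPM in Ler, against 1100, 924 and 1050 CPM in Col-0 (log2 fold change -0.09 ± 0.15, adjusted p = 0.657). PSBO2 had 986, 1090 and 1050 CPM in Ler, against 1530, 1380 and 1710 CPM in Col-0 (log2 fold change -0.56 ± 0.13, adjusted p = 0.00255). Its copy PSBO1 had 4620, 5360 and 5060 CPM in Ler, against 5230, 4490 and 5980 CPM in Col-0 (log2 fold change -0.06 ± 0.13, adjusted p = 0.756). In both pairs 1 copy separated the wild types, as did 21.8% of all genes in this direction, and the other overlapped. In asil1-1 asil2-1, PSBQ2 had 764, 690 and 721 CPM, against 1680, 1490 and 1690 CPM in Col-0 (log2 fold change -1.16 ± 0.14, adjusted p = 2.57e-06), and PSBQ1 had 1380, 1210 and 1320 CPM, against 1590, 1290 and 1690 CPM in Col-0 (log2 fold change -0.22 ± 0.13, adjusted p = 0.180). The PSBQ1 to PSBQ2 ratio was 1.75 to 1.84 in asil1-1 asil2-1, 1.11 to 1.38 in asil2-1, 1.42 to 1.58 in Ler and 0.861 to 0.997 in Col-0.

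**Figure D4:**
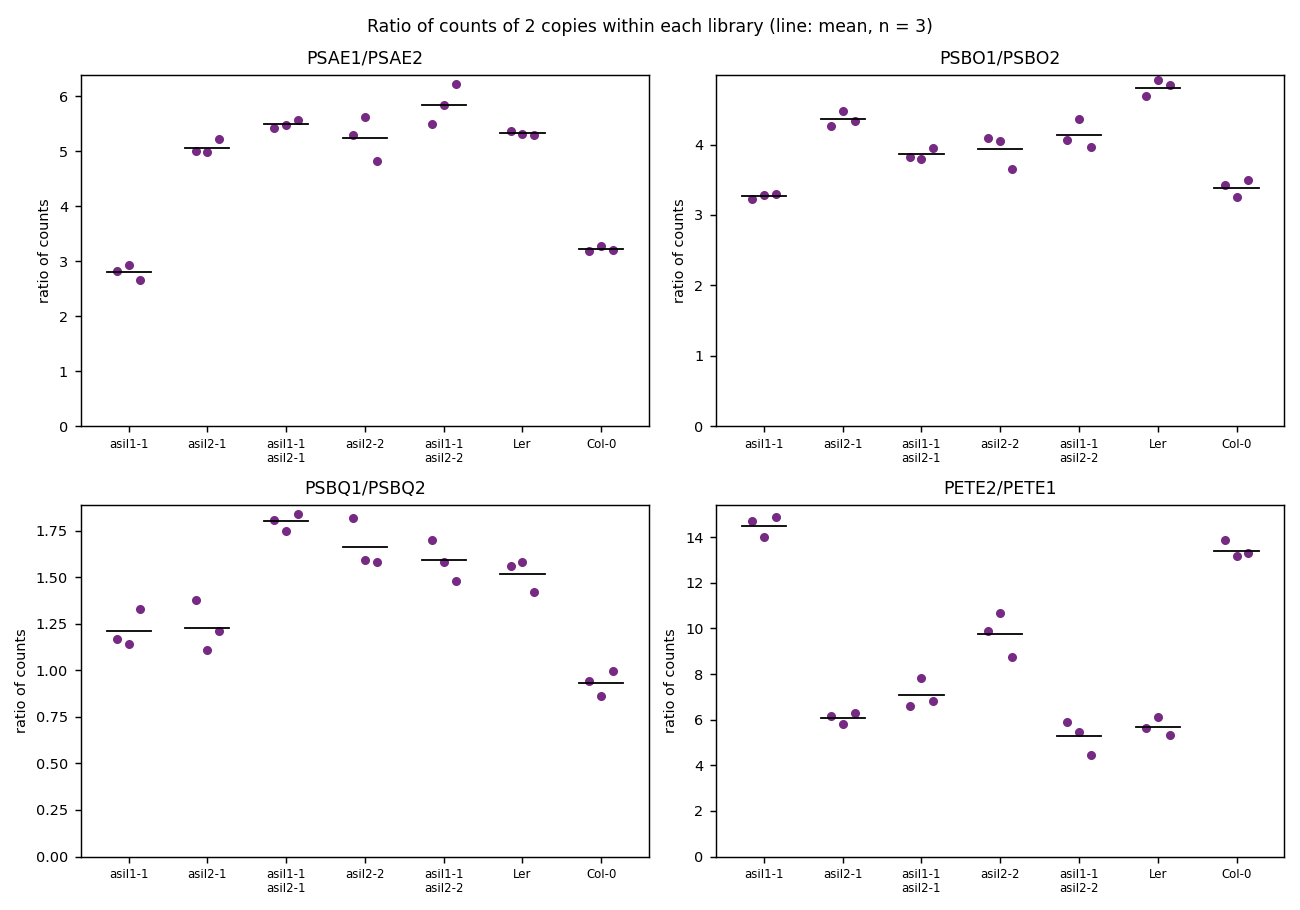
Ratio of the counts of 2 copies of a gene within each library (y axis, from 0) in the 7 groups (x axis), with a point per library and a line at the mean of 3. PSAE1/PSAE2 and PETE2/PETE1 set asil1-1 and Col-0 apart from the other 5 groups, and PSBQ1/PSBQ2 is lowest in Col-0, at 0.861 to 0.997.

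The members are short, and short genes as a whole were lower in the same comparisons. Of the 34 genes, 32 had a coding length below the median of all loci, 1110 nt, and the members ranged from 312 to 1122 nt. In asil2-1 against Col-0, the 11 members with a coding length of 300 to 450 nt had a median log2 fold change of -1.19 with 11 lower, and all 1150 genes tested in that class had a median of -0.67 with 57.0% lower. Among genes of over 450 to 700 nt the median was -0.79 over 15 members and -0.36 over all 2558 genes, and among genes of over 700 nt up to the longest member, 1122 nt, it was -0.57 over 8 members and -0.09 over all 4772 genes. The rank correlation of fold change with coding length was 0.69 across the 34 members and 0.50 across all genes, as a description of genes that share libraries. In asil1-1 asil2-2 against Ler the trend over all genes was weak, with a rank correlation of 0.10, and the 11 members of the shortest class had a median of -0.60, against -0.07 over all genes of that class. A contrast of long and short genes per library, the median log2 level of genes over 4000 nt of exonic length minus that of genes up to 800 nt, was -0.41 to -0.32 for asil1-1, 0.47 to 0.63 for asil2-1, 0.34 to 0.41 for asil1-1 asil2-1, -0.01 to 0.51 in asil2-2, -0.51 to 0.49 in asil1-1 asil2-2, -0.41 to 0.24 in Ler and -1.08 to -0.77 in Col-0.

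With each library's trend on coding length removed, 23 of the 34 genes were lower in asil2-1 against Col-0, against 13.2% of all genes in the same corrected fit, of which 12 were of photosystem I, 9 of photosystem II and 2 of the rest. Under this correction, added after the values were seen, PETE2 was at -1.64 ± 0.11 (adjusted p = 6.29e-09), PSAH1 at -1.45 ± 0.16, PSAH2 at -1.40 ± 0.14, PSBR at -1.28 ± 0.15, PSAE2 at -1.27 ± 0.12 and PSAG at -1.06 ± 0.12, each with an adjusted p of 4.29e-06 or less. In asil1-1 asil2-1 against Col-0, 23 were lower, against 15% of all genes. In asil1-1 asil2-2, 29 were lower against Ler, where 14.6% of all genes were, and 23 against Col-0, where 13.9% of all genes were. In asil1-1 asil2-1 against asil1-1, 19 were lower, against 7.55% of all genes. FD2 in asil2-1, at -0.29 ± 0.14 (adjusted p = 0.133), and PSBQ1 in asil2-1, at -0.19 ± 0.10 (adjusted p = 0.183), no longer passed.

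**Figure D5:**
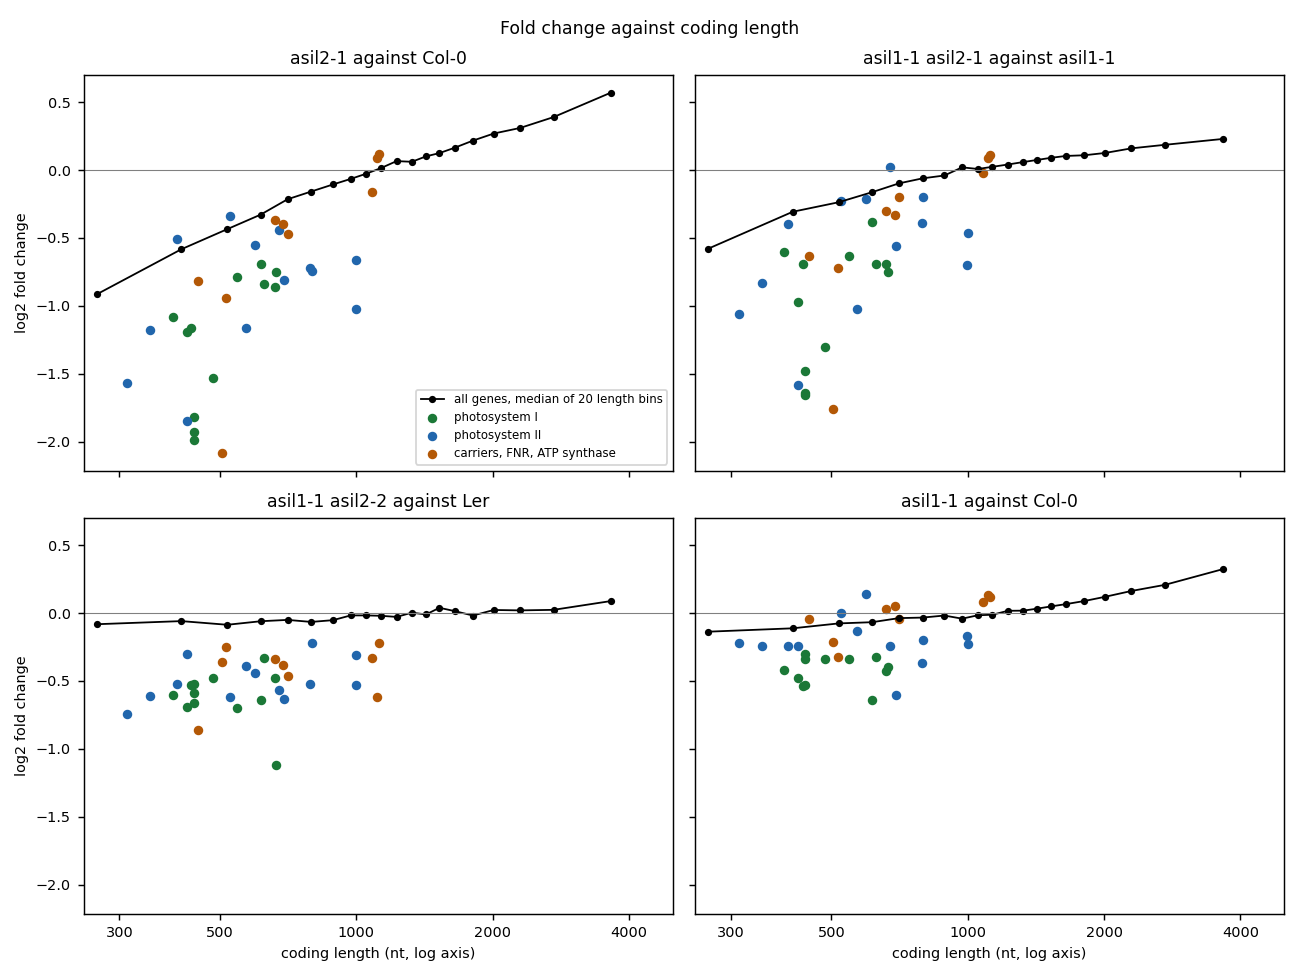
Log2 fold change (y axis) against coding length in nt (x axis, log scale) for the 34 genes by colour, with the median of all genes in 20 length bins in black, in 4 comparisons. Most members lie below the black line, which slopes in asil2-1 against Col-0 and in asil1-1 asil2-1 against asil1-1 and is near flat for these lengths in asil1-1 asil2-2 against Ler.

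The Col-0 libraries differed in their root markers, with root scores of 1.62, 1.70 and 0.29. When replicate 3, with the lowest root score, stood alone for Col-0, that single library was assumed to vary like the libraries of the other groups. The count of lower genes was then 0 for asil1-1, where it was 6 with all 3 Col-0 libraries, 31 for asil2-1 (31 with all 3), 28 for asil1-1 asil2-1 (27 with all 3), 27 for asil1-1 asil2-2 (27 with all 3) and 13 for Ler (14 with all 3). The count of higher genes for Ler was 0, where it was 4 with all 3. The shares of all genes called in this fit are not given here. These counts therefore show only how far the calls depend on the Col-0 libraries, not whether the 34 genes stand out there. The part of root tissue in these results was not tested.

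Other nuclear genes of the same pathway were counted in the same fits, where 19.3% of all genes were lower and 21.9% higher in asil2-1 against Col-0, 18.8% lower and 20.5% higher in asil1-1 asil2-1 against Col-0, and 13.5% lower and 14.8% higher in asil1-1 asil2-2 against Ler. Of 18 further electron transport genes (such as FD1, PGR5 and the CURT1 genes), 10 were lower and 1 higher in asil2-1 against Col-0. Their median log2 fold change there was -0.46. Of the same 18, 8 were lower and 3 higher in asil1-1 asil2-1 against Col-0 (median -0.25). In asil1-1 asil2-2 against Ler, 8 were lower and 2 higher (median -0.19). Of 16 genes for the NDH complex, which cycles electrons around photosystem I, 10 were lower in asil2-1 against Col-0 (median -0.50), 3 were lower and 1 higher in asil1-1 asil2-1 against Col-0 (median -0.08), and 11 were lower in asil1-1 asil2-2 against Ler (median -0.43). Of 21 genes for assembly factors of these complexes, 3 were lower and 3 higher in asil2-1 against Col-0 (median -0.02), 1 was lower and 5 higher in asil1-1 asil2-1 against Col-0 (median 0.11), and 11 were lower in asil1-1 asil2-2 against Ler (median -0.30). The assembly factors were thus near or below the share of all genes in both comparisons with Col-0. No test was made between these lists and the 34 genes, and the coding lengths of the lists were not compared.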

How the data were processed

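Seedling RNA was sequenced from polyA libraries made from 5 ug of total RNA, per the labels' protocols. The deposited files hold raw counts per transcript model, 1 model per locus. The tools named are Bowtie 0.12.7 and edgeR 3.0.8, with the build TAIR10, per the submitters' processing notes. For the counting program, strand and multiply mapping reads, details were not given in the sources used here.

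Counts were fitted with R 4.3.3 and edgeR 4.0.16: filterByExpr (19589 genes tested, 4511 removed), TMM scaling, a mean for each group fitted to all 21 libraries, leaving 14 residual degrees of freedom, the robust quasi-likelihood test, and Benjamini-Hochberg adjustment over all genes tested with a threshold of 0.05. CPM values use TMM-scaled library sizes. Counts of 19589 genes were simulated with 100 genes changed 1.5-fold and 100 changed 2-fold in asil2-1 alone. Against Col-0, 34% of the 1.5-fold and 74% of the 2-fold changes were recovered, and 8.5% of calls were false. In the data 3783 genes were called lower and 4298 higher in this comparison, so these rates do not carry over to the members. Between 6522764 and 28794135 counts per library leave 0.104 to 0.46 CPM as the level of 3 counts; this covers counting error only. Replicates were distinct libraries, and same-numbered libraries did not deviate together (median r 0.05 over 63 pairs).

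The members and lists were chosen with earlier results of these data known. Members given in every library are the 3 with the smallest p in asil2-1 against Col-0 in each of the 3 divisions (photosystem I, photosystem II, rest), copies that differ in call in at least 2 comparisons, and genes called against the majority; PSAG, PSAF, PSBS and PSB28 are given besides because of their values. Gene models, coding lengths and upstream sequences come from RefSeq TAIR10.1. The length corrections subtract a lowess trend (span 0.3) of log CPM on log length in each library; the root score is the mean centred log2 level of the root markers. Correction by coding length, and length correction with Col-0 replicate 3 alone, were added after the data were seen, as was the ecotype check (pseudocount 0.5 CPM). DESeq2 1.42.0, RLE scaling, other filters, removal of organellar genes, a fit of the compared groups, leaving out each library and a replicate block were the other alternatives.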

Additional observations from a re-analysis of the deposited data

Results flagged for a closer look

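The results given here are differences between effects that passed the test of the difference itself. PSBS was called non-additive in asil1-1 asil2-1, at 0.54 (adjusted p = 0.0452). It was 1 of 34 genes, near the 2.22% of all genes called positive. The call was also lost in most cases of leaving out 1 library, so it is not read as a result about the list.

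The asil2-2 effect against Ler minus the asil2-1 effect against Col-0 was called positive in 17 of the 34 genes, against 10.6% of all genes. In photosystem I it was 2.00 for PSAH2, 1.77 for PSAH1, 1.56 for PSAE2, 1.48 for PSAG, 0.95 for PSAO, 0.87 for PSAE1, 0.76 for PSAD1, 0.75 for PSAL and 0.71 for PSAK. In photosystem II it was 2.08 for PSBR, 1.19 for PSBTN, 1.04 for PSBY, 1.02 for PSBX, 0.94 for PSBS and 0.90 for PSBO2. Among the carriers it was 2.33 for PETE2 and 0.43 for PETC, the least certain, with an adjusted p of 0.0479. Allele and ecotype cannot be told apart in these differences. After correction for coding length 11 genes were called higher. The shares of all genes in that fit are not given here, so this count does not show whether the list stands out there.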

How the results depend on the processing

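The counts of lower genes in both double mutants against Col-0, in asil1-1 asil2-1 against asil1-1 and, apart from 1 left-out library, in asil1-1 asil2-2 against Ler stayed within 1.5 times of the values reported under every alternative run. The count in asil1-1 (6) was 10 with RLE scaling, 11 with DESeq2, 0 with the root score, 0 with the root score and length correction together, 0 with Col-0 replicate 3 alone with or without the length correction, and 2 to 11 with 1 library left out. The count in asil2-1 (31) was 18 with the length correction and root score and 18 with the length correction and Col-0 replicate 3 alone. In asil2-2 against Ler (1 lower) it was 5 with DESeq2, 2 with the length correction, 3 with the root score, 4 with both, 0 in the compared groups alone and 0 to 6 with 1 library left out. In asil1-1 asil2-2 against Ler it was 18 to 29 with 1 library left out. In Ler against Col-0, the lower count (14) was 9 with the length correction, 8 with the root score added, 8 with the length correction and Col-0 replicate 3 alone and 9 with coding length; the higher count (4) was 7, 8, 2 and 9 under these, 0 with Col-0 replicate 3 alone and 1 to 5 with 1 library left out. Higher genes in asil1-1 asil2-1 against Col-0 (0) were 2 with the length correction, 1 with the root score added and 0 to 1 with 1 library left out (1 without Col-0 replicate 3). Against asil2-1, lower genes (0) were 3 with the length correction, 5 with the root score added, 1 with coding length and 0 to 3 with 1 library left out, and higher genes (1) were 2 with DESeq2, the length correction, the root score, both, and coding length, and 0 with any library left out. The PSBS non-additivity call (1) became 0 with no filter, the root score, the length correction and root score, Col-0 replicate 3 alone with or without the length correction, coding length, and 0 to 1 with 1 library left out. The difference of the asil2 effects (17 higher) was 9 with the length correction and Col-0 replicate 3 alone and 11 with coding length, where 1 was lower.

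Reversed signs were all near 0 and all under a length correction. In asil2-1, PSBQ1 was at 0.01 with the length correction and 0.11 with the root score added, PSBW at 0.00 with both and 0.10 with coding length, and PSB27 at 0.08 with coding length. In asil1-1 asil2-1 against Col-0, PETC was at 0.01 with and 0.01 without the root score, and ATPG at 0.01. In Ler, PSBX was at 0.13, 0.15, 0.06 and 0.07 and PSBTN at 0.02. The cause was not tested. The replicate numbers did not pair the samples; with a replicate block, the counts lower were 6 in asil1-1, 31 in asil2-1 and 26 in asil1-1 asil2-1 against Col-0, and the difference of asil2 effects had 16. Exonic length is uncertain where annotated ends of members overlap neighbours. Depth limited no member, since the lowest count of any member in any library was 1046.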

Other observations

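The chloroplast-encoded subunits of the same complexes did not follow the nuclear ones in asil2-1. Of 32 such genes listed, 22 were tested. In asil2-1 against Col-0, 13 were higher and 1 lower, with a median log2 fold change of 1.05, against 21.9% of all genes higher and 19.3% lower. In asil1-1 asil2-1 against Col-0, 5 were higher and 1 lower (median 0.46), against 20.5% of all genes higher and 18.8% lower. In asil1-1 asil2-2 against Ler, 1 was lower (median 0.10), against 13.5% of all genes. The libraries were made from polyA RNA, which holds only a small and variable share of chloroplast transcripts, and how these values relate to chloroplast transcript levels was not tested.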
